A study of Mus musculus with 10 samples.

Results

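NFAT factors, Tox factors and the Rcan regulators of calcineurin were followed in splenic CD8+ T cells of Dusp2 conditional knockout and control mice. Dusp2 encodes a nuclear phosphatase of MAP kinases. The 8 genes were taken by name, as Nfatc1, Nfatc2, Nfatc3, Nfat5, Rcan1, Rcan3, Tox and Tox2, out of 57010 genes in the deposited table, and each name matched 1 row. All 8 passed the filter on low counts, beside 18966 genes in all. RNA of 5 mice was sequenced in bulk. The 3 conditional knockout mice, called cKO here, were Dusp2fl/fl-E8I-cre+/-, and the 2 control mice were Dusp2fl/fl-E8I-cre-/-, so every animal carried the floxed gene and the cre transgene was present in cKO mice alone. E8I-cre is driven by a Cd8a enhancer and acts in CD8+ T cells. Each mouse gave cells activated for 24 h with beads that carry antibodies to CD3 and CD28, and cells rested for the same 24 h without beads, which makes 10 libraries. cKO mice 1 and 2 and control mouse 1 were male, and cKO mouse 3 and control mouse 2 were female. The labels used here give no age.

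In T cells, antigen receptor signals release calcium, calcium and calmodulin switch on the phosphatase calcineurin, and calcineurin strips phosphates from NFATc1, NFATc2 and NFATc3 so that they enter the nucleus. NFAT5 is the relative that calcineurin does not control in this way, and it is best known for driving the response to high salt. RCAN proteins bind calcineurin and restrain it. TOX and TOX2 are HMG-box factors that act downstream of NFAT and are known for their part in T cell exhaustion.

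Libraries held 51203786 to 65135435 counts, so that 3 counts, the floor used here, correspond to 0.0461 to 0.0586 CPM (counts over the library total, per 1e+06) in a library. Levels of 1 gene are given as CPM scaled by edgeR's TMM factors, and levels are compared between genes only as the deposited FPKM, which also divides by gene length. Dusp2 averaged 51.8 ± 5.0 CPM in activated cKO and 295 ± 4.9 CPM in activated control cells, and 25.98 ± 1.9 CPM in rested cKO and 92.6 ± 6.8 CPM in rested control cells (SD, n = 3 cKO and n = 2 control mice, as throughout). cKO mouse 3 has 2 libraries whose titles go against their other labels. They are grouped here by genotype field and library name. The counts called among the 8 genes are also given without that mouse, while pathway, marker and overlap counts are given only with it. The summed level of 8 CD8 T cell markers was 2941 to 3094 CPM in activated and 3467 to 3813 CPM in rested libraries. In bulk RNA, fewer cells of a type and less RNA per cell cannot be told apart.

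Activation split the 8 genes into 4 that rose and 4 that fell, in both genotypes. Nfatc1, Nfat5, Rcan1 and Tox2 were higher in activated than in rested cells of all 5 mice, and Nfatc2, Nfatc3, Rcan3 and Tox were lower in all 5. Each passed edgeR's quasi-likelihood F test, with Benjamini-Hochberg adjustment, over all genes tested (adjusted p below 0.05), so 8 of 8 were called in cKO cells and 8 of 8 in control cells. Tox2, with at most 8 counts in any rested library, passed the filter on low counts through its activated libraries alone, so its call is not read as support. Of all genes tested, 63.4% were called in cKO cells (31.5% higher and 31.9% lower), and 56.1% in control cells (28.5% higher and 27.6% lower). Libraries of the activated and the rested group did not overlap for any of the 8 genes, which also held for 66.9% of all genes in cKO and 76.8% in control cells. The median absolute log2 fold change of the 8 genes was 0.80 in cKO and 0.73 in control cells, beside 0.58 and 0.56 over all genes. Without cKO mouse 3 the count was 8 of 8 in each genotype.

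**Figure D1:**
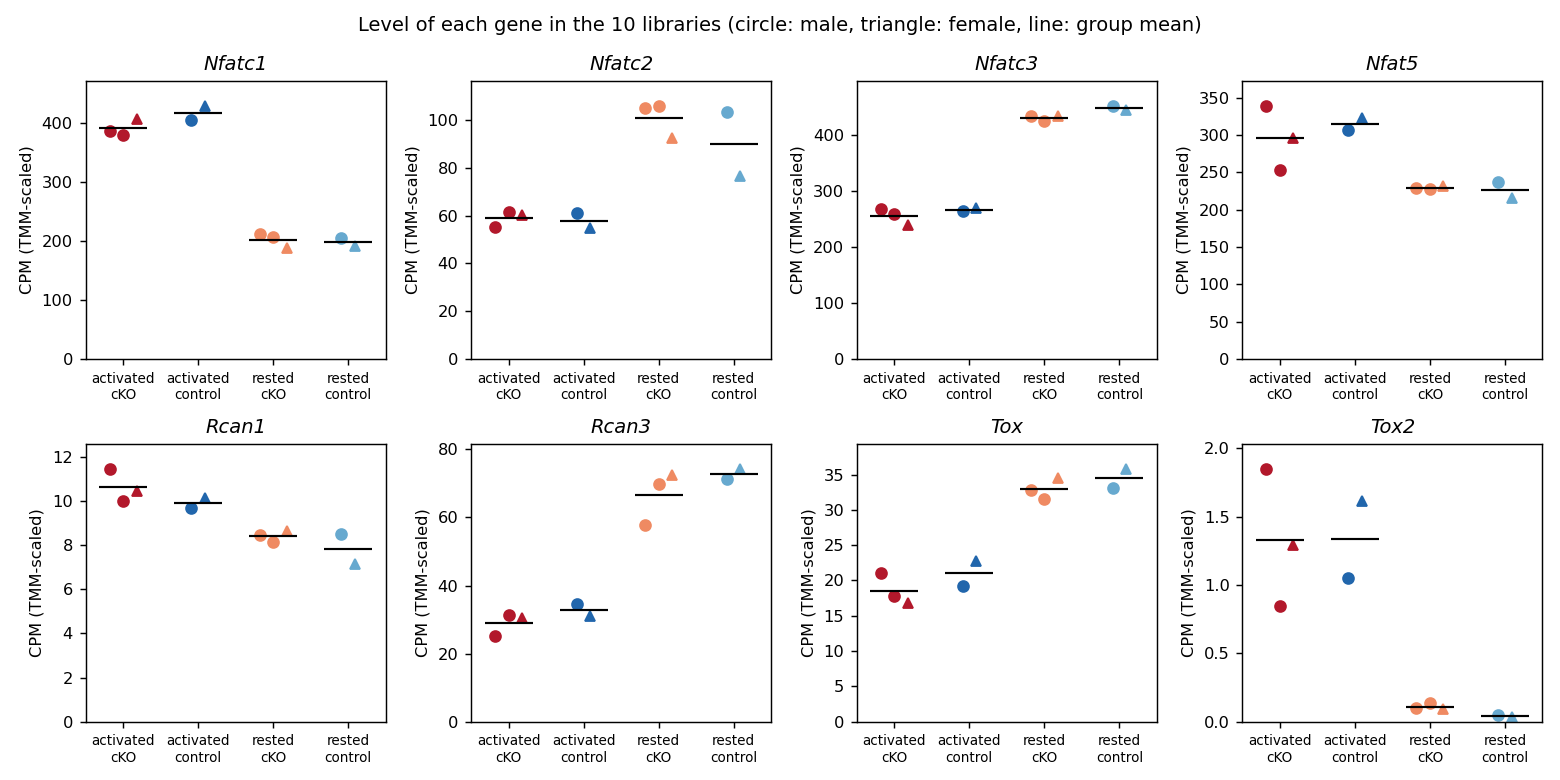
CPM (TMM-scaled, axes from 0) of the 8 genes in each library, by group, with circles for male mice, triangles for female mice and a line at the group mean. Activated and rested libraries separate for every gene, while cKO and control libraries of the same state lie close together, with means for Nfatc1 of 391 and 417 CPM in activated and 202 and 198 CPM in rested cells.

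Nfatc1, the NFAT gene known to be induced by its own pathway, rose in every mouse. In cKO mice 1, 2 and 3 it stood at 386, 380 and 406 CPM in activated cells, against 211, 208 and 188 CPM in rested cells. In the control mice, 1 and 2, it stood at 406 and 428 CPM in activated cells, against 204 and 191 CPM in rested cells. The lowest activated library thus lay well above the highest rested one. Its log2 fold change was 0.95 (SE 0.06, adjusted p = 1.22e-08) in cKO and 1.08 (SE 0.07, adjusted p = 5.82e-08) in control cells. Long and short isoforms of NFATc1 come from different starts and cannot be separated in counts per gene.

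Nfatc3, the NFAT gene with the highest FPKM in rested cells, moved the other way. It had 267, 258 and 240 CPM in activated cells of cKO mice 1, 2 and 3, against 433, 425 and 433 CPM in their rested cells. In control mice 1 and 2, Nfatc3 had 263 and 269 CPM in activated cells, against 451 and 444 CPM in rested cells. All activated libraries lay below all rested ones. The log2 fold change was -0.76 in cKO cells (SE 0.05, adjusted p = 2.60e-08) and -0.75 in control cells (SE 0.06, adjusted p = 3.70e-07).

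Nfatc2, which encodes the NFAT protein stored in the cytoplasm of resting T cells, fell as well. It had 55.5, 61.8 and 60.4 CPM in activated cells of cKO mice 1, 2 and 3, against 105, 106 and 92.4 CPM in their rested cells. Control mice 1 and 2 had 61.1 and 54.9 CPM in activated cells, against 103 and 76.5 CPM in rested cells. At rest the female of each genotype was the lowest of its group, and the sex effect on this gene was not tested. The log2 fold change was -0.77 (SE 0.08, adjusted p = 2.07e-06) in cKO and -0.63 (SE 0.10, adjusted p = 0.00011) in control cells.

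Nfat5, the osmotic-stress member, rose by less than Nfatc1. It had 338, 253 and 296 CPM in activated cells of cKO mice 1, 2 and 3, against 229, 228 and 232 CPM in their rested cells. In control mice 1 and 2, Nfat5 had 306 and 323 CPM in activated cells, against 237 and 216 CPM in rested cells. The cKO mice were nearly level at rest and spread out after activation, where mouse 2 gained 1.11-fold and mouse 1 gained 1.48-fold. The log2 fold change was 0.37 (SE 0.09, adjusted p = 0.00318) in cKO and 0.47 (SE 0.11, adjusted p = 0.00269) in control cells. Without control mouse 2 the call in control cells ended (log2 fold change 0.38, adjusted p = 0.0978).

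Opposite moves of Nfatc1 and Nfatc3 exchanged their order in the family. Per length, Nfatc1 made up 54.6% ± 1.8 of the summed NFAT FPKM in activated cKO cells and 55.2% ± 0.6 in activated control cells, against 31.5% ± 1.2 in rested cKO and 31.0% ± 0.1 in rested control cells. Nfatc3 made up 22.7% ± 1.4 and 22.5% ± 0.2 in activated cKO and control cells, against 42.8% ± 1.3 and 44.7% ± 1.8 in rested ones. The ratio of Nfatc1 to Nfatc3 FPKM was 2.27 to 2.66 in activated cKO and 2.42 to 2.50 in activated control libraries, against 0.682 to 0.767 in rested cKO and 0.676 to 0.712 in rested control libraries. The summed FPKM of the 4 genes moved far less, at 97.9 ± 2.8 and 103.4 ± 2.0 in activated cKO and control cells, against 83.9 ± 1.6 and 83.4 ± 3.9 in rested ones. FPKM carries no TMM factor, which matters for the sum between states. Leaving out TMM factors shifted the median log2 fold change of all genes on activation by 0.066 in cKO and 0.067 in control cells. These shares, ratios and sums are descriptions, with no test.

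**Figure D2:**
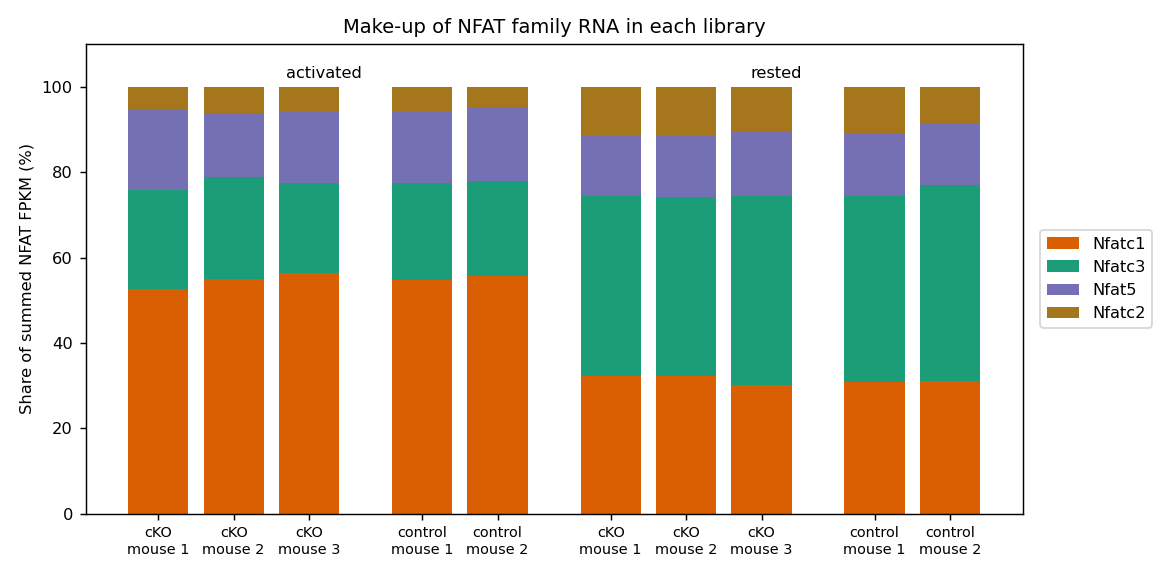
Share in percent of the summed FPKM of Nfatc1, Nfatc3, Nfat5 and Nfatc2 held by each gene, as 1 stacked bar per library, with activated libraries on the left and rested ones on the right. The Nfatc1 share lies between 52.7% and 56.3% in activated and between 30.2% and 32.3% in rested libraries, and that of Nfatc3 between 21.2% and 23.8% in activated and between 41.9% and 45.9% in rested libraries.

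The calcineurin regulators Rcan1 and Rcan3 went apart. Rcan1, a classic calcineurin and NFAT target whose protein feeds back on calcineurin, had 11.5, 10.0 and 10.4 CPM in activated cells of cKO mice 1, 2 and 3, against 8.47, 8.12 and 8.65 CPM in their rested cells. In control mice 1 and 2, Rcan1 had 9.70 and 10.1 CPM in activated cells, against 8.51 and 7.17 CPM in rested cells. The rise was modest in every mouse, from 1.14-fold in control mouse 1 to 1.42-fold in control mouse 2. The log2 fold change was 0.34 (SE 0.10, adjusted p = 0.0101) in cKO and 0.34 (SE 0.12, adjusted p = 0.0311) in control cells. The call in control cells ended without control mouse 2, where the log2 fold change was 0.20 (adjusted p = 0.452), and with no filter on low counts (adjusted p = 0.0511). The call in cKO cells ended without cKO mouse 1 (log2 fold change 0.29, adjusted p = 0.0870).

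Rcan3, the other Rcan gene detected here, fell by more than any other of the 8 genes that fell. It had 25.1, 31.3 and 30.5 CPM in activated cells of cKO mice 1, 2 and 3, against 57.7, 69.9 and 72.5 CPM in their rested cells. Control mice 1 and 2 had 34.6 and 31.0 CPM in activated cells, against 71.3 and 74.2 CPM in rested cells. cKO mouse 1 was the lowest library of its group in each state, and its own change, 2.30-fold lower, was like that of the other mice, 2.06-fold to 2.40-fold lower. The log2 fold change was -1.20 (SE 0.10, adjusted p = 5.48e-07) in cKO and -1.15 (SE 0.12, adjusted p = 6.91e-06) in control cells. The ratio of Rcan3 to Rcan1 FPKM was 1.66 ± 0.30 in activated cKO and 2.00 ± 0.22 in activated control cells, against 4.79 ± 0.59 in rested cKO and 5.66 ± 0.84 in rested control cells.

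Promoter windows of the Rcan genes are shown because this pair moved in opposite directions. Each runs from 250 bases before to 50 bases after a RefSeq start, on the minus strand of GRCm38.p6, and is written 5′ to 3′. Rcan1 has 2 starts, an upstream one at chr16:92466120-92466419 and a downstream one at chr16:92400029-92400328, and the downstream start is known in mouse and human as the calcineurin-responsive one that makes the shorter RCAN1 protein. Rcan3 has 1 start, at chr4:135433756-135434055. Capitals mark matches to the NFAT core GGAAA, read as TTTCC on the other strand, and to the AP-1 motif TGANTCA on either strand, with no overlap between them.
Rcan1 upstream start: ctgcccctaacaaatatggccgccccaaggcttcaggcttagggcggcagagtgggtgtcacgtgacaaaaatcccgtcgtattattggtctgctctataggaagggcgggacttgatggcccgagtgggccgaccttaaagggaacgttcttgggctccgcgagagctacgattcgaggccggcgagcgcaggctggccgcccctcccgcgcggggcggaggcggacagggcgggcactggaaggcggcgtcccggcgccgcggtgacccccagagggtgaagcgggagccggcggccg
Rcan1 downstream start: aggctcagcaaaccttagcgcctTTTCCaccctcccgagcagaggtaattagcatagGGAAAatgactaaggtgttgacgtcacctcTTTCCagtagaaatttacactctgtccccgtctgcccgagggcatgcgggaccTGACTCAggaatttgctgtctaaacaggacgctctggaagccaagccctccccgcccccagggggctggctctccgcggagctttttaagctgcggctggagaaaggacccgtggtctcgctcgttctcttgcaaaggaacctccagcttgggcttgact
Rcan3 start: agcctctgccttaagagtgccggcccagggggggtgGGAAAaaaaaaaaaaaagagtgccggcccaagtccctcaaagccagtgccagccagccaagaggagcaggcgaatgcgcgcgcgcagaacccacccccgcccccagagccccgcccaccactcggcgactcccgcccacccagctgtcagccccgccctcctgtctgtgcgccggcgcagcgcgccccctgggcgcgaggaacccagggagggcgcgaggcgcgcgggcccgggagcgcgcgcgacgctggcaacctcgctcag

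The downstream Rcan1 window held 3 matches to the NFAT core and 1 to the AP-1 motif, the upstream window 0 of either, and the Rcan3 window 1 NFAT core. Of 32851 promoter windows of the same length, 61.3% held at least 1 NFAT core, 9.42% held 3 or more and 7.81% held an AP-1 match. The counts are per gene, so they do not say from which start the Rcan1 RNA came, and a match in these letters is not a binding site. Windows were found for 6 of the 8 genes, and Nfatc1 and Tox had none. Across these 13 windows, Nfatc2 had 3 and 1 core matches at its starts, Nfat5 had 2, Nfatc3 had 1 and 0, and Tox2 had 0 at 3 starts and 1 at each of the other 2, which are 1 base apart. No window outside the downstream Rcan1 start held the AP-1 motif.

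Tox and Tox2 also went apart, at very different levels. Tox had 21.0, 17.8 and 16.8 CPM in activated cells of cKO mice 1, 2 and 3, against 32.8, 31.5 and 34.6 CPM in their rested cells. Control mice 1 and 2 had 19.3 and 22.8 CPM in activated cells, against 33.1 and 35.8 CPM in rested cells. Every mouse fell, from 1.56-fold lower in cKO mouse 1 to 2.05-fold lower in cKO mouse 3. Its log2 fold change was -0.83 (SE 0.09, adjusted p = 2.62e-06) in cKO and -0.71 (SE 0.11, adjusted p = 8.65e-05) in control cells.

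Tox2 was near the floor in rested cells and low after activation. It had 113, 49 and 77 counts in activated cells of cKO mice 1, 2 and 3, against 5, 8 and 5 counts in their rested cells. Control mice 1 and 2 had 63 and 107 counts in activated cells, against 3 and 2 counts in rested cells. Since the filter kept Tox2 through its activated libraries alone, its rise is described here and not read as support. Its size is loosely known. Summed over libraries and scaled, the ratio of activated to rested was 12.01 in cKO (exact 95% interval 7.44 to 20.6) and 30.9 in control cells (13.0 to 96.5), and these intervals cover counting error only. Even after activation Tox exceeded Tox2 per length, with an FPKM ratio of 6.77 ± 2.32 in activated cKO and 7.23 ± 1.32 in activated control cells.

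Ranked by FPKM in activated cells of either genotype, the order was Nfatc1, Nfatc3, Nfat5, Rcan3, Nfatc2, Rcan1, Tox and Tox2. In rested cells of either genotype it was Nfatc3, Nfatc1, Rcan3, Nfat5, Nfatc2, Tox, Rcan1 and Tox2. Levels ran from 53.5 ± 1.7 FPKM for Nfatc1 to 0.40 ± 0.15 FPKM for Tox2 in activated cKO cells, and from 35.9 ± 0.5 FPKM for Nfatc3 to 0.032 ± 0.007 FPKM for Tox2 in rested cKO cells. Among neighbours in these orders the libraries overlapped for Rcan3 and Nfatc2 in activated cKO cells and for Rcan3 and Nfat5 in rested cKO cells, and for no other pair of neighbours in any group.

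The genotype comparison asks whether these genes differ between cKO and control cells, and none of the 8 passed the test in either state. Dusp2 RNA was lower in cKO cells but not absent. It averaged 51.8 CPM against 295 CPM in activated and 25.98 CPM against 92.6 CPM in rested cells. The part of the remaining Dusp2 RNA in these comparisons was not tested. In activated cells 0 of 8 were called, with 0 at an unadjusted p under 0.05 by edgeR's quasi-likelihood test, beside 0.0422% of all genes called. In rested cells it was again 0 of 8 called and 0 at an unadjusted p under 0.05, beside 0.0422% of all genes called. DESeq2 and limma also called 0 of 8 in each state, and so did the fit without cKO mouse 3. The intervals bound what could have been missed. For the 7 genes other than Tox2, the 95% intervals of the log2 fold change of cKO over control lay between -0.41 (Rcan3) and 0.34 (Rcan1) in activated cells and between -0.35 (Rcan3) and 0.35 (Rcan1) in rested cells. Since cre was present in cKO mice alone, the lower Dusp2 and cre itself cannot be told apart.

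Rcan3 and Tox had the lowest estimates among the 8 genes in activated cells, each at -0.17 (SE 0.11 for Rcan3 and 0.10 for Tox, adjusted p = 0.847 and 0.841). Rcan3 averaged 29.0 ± 3.4 CPM in activated cKO and 32.8 ± 2.5 CPM in activated control cells, and Tox averaged 18.5 ± 2.2 CPM in activated cKO and 21.0 ± 2.5 CPM in activated control cells. For both genes the libraries of the genotypes overlapped. In activated cells the genotypes overlapped for all 8 genes, while 17.1% of all genes did not overlap. In rested cells 2 of 8 genes did not overlap, beside 17.7% of all genes. These were Nfatc3, at 425 to 433 CPM in cKO and 444 to 451 CPM in control libraries (log2 fold change -0.06, SE 0.06, adjusted p = 1.0), and Tox2. Rested Tox2 summed to 18 counts over 3 cKO libraries and 5 counts over 2 control libraries, a scaled ratio of 2.56 (exact 95% interval 0.915 to 8.81, counting error only; adjusted p = 1.0). In activated cells the same ratio was 0.992 (0.812 to 1.22).

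**Figure D3:**
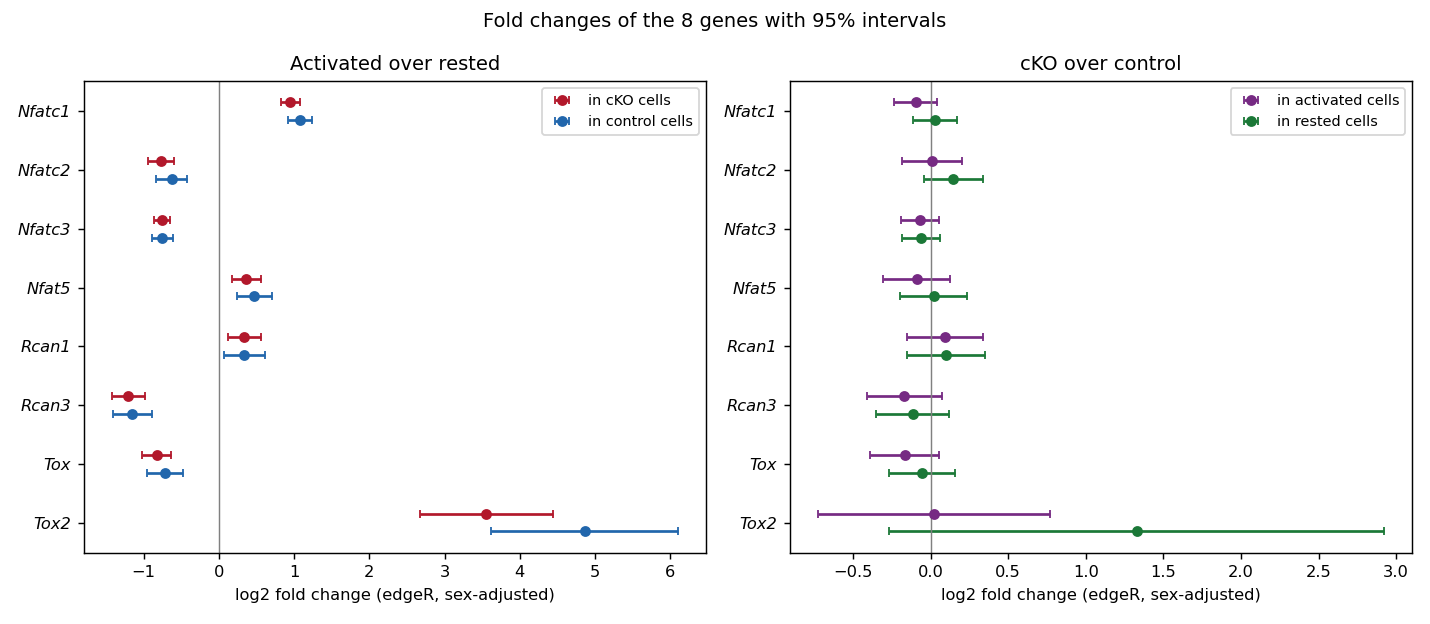
Log2 fold changes of the 8 genes from edgeR with 95% intervals, activated over rested on the left (cKO above control) and cKO over control on the right (activated above rested). On the left no interval reaches 0, and on the right every interval spans 0, with that of Tox2 in rested cells running from -0.27 to 2.92.

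Whether activation acted differently in cKO and control cells was asked with the interaction term. None of the 8 genes was called (0 with an unadjusted p under 0.05 by edgeR, and 0 called by DESeq2 and limma), and 0% of all genes were called, with 519 at an unadjusted p under 0.05. All 8 estimates were negative (median -0.11, beside -0.01 over all genes), and 47.4% of all genes had a positive one. The 95% intervals ran from -0.33 to 0.07 for Nfatc1, from -0.18 to 0.16 for Nfatc3 and from -0.35 to 0.34 for Rcan1. For Tox2 the interval was -3.06 to 0.45, so a larger rise of Tox2 in control cells was not established.

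Other genes of the pathway were described by lists chosen with results of these data known. Of 63 genes listed, 57 were tested. In activated against rested cells 31 rose and 15 fell in cKO cells, and 29 rose and 16 fell in control cells. Of all genes, 31.5% rose and 31.9% fell in cKO cells, and 28.5% rose and 27.6% fell in control cells, and the counts of each list below stand beside these shares. With 4 to 8 genes in a list, counts such as 3 of 4, 3 of 5 or 5 of 8 are descriptions and single out none of these lists.

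Calcium entry and release genes mostly fell, with 8 of 13 lower and 2 higher in each genotype. The median log2 fold change was -0.53 in cKO and -0.49 in control cells, beside -0.01 and -0.00 over all genes. The pore subunits went apart. Orai1 averaged 77.5 ± 3.5 CPM in activated and 34.3 ± 1.6 CPM in rested cKO cells, and 79.5 ± 4.3 CPM in activated and 37.2 ± 0.1 CPM in rested control cells. Orai2 averaged 148 ± 19.7 CPM in activated and 412 ± 14.03 CPM in rested cKO cells, and 168 ± 18.8 CPM in activated and 451 ± 34.5 CPM in rested control cells. The calcium sensor Stim1 fell (log2 fold change -0.999 in cKO and -1.03 in control cells), while its relative Stim2 rose (0.56 and 0.64). Itpr3, a calcium release channel gene, fell by 1.43 and 1.29, and Plcg1, the phospholipase that makes its ligand, fell by 1.36 and 1.30 on the log2 scale. By edgeR the adjusted p of these 6 genes was at most 1.80e-06 (Stim2 in control cells).

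Of 4 tested calcineurin subunits 3 fell in each genotype and none rose, where 31.9% of all genes fell in cKO and 27.6% in control cells. The catalytic subunit gene Ppp3ca averaged 35.9 ± 4.0 CPM in activated and 65.7 ± 2.05 CPM in rested cKO cells, and 36.0 ± 4.7 CPM in activated and 66.1 ± 0.4 CPM in rested control cells. Ppp3cc and Ppp3cb fell too (log2 fold change -0.63 and -0.28 in cKO, -0.67 and -0.18 in control cells). The regulatory subunit gene Ppp3r1 had 0.07 and -0.02 and did not pass. Among 5 genes of calcineurin inhibitors and scaffolds, 3 rose and 1 fell in each genotype, a share called not far from the 63.4% of all genes in cKO and 56.1% in control cells. Ppia and Fkbp1a, whose products are the targets of cyclosporin and FK506, rose (0.66 and 0.85 in cKO, 0.62 and 0.77 in control cells), as did the scaffold gene Akap5 at low level, and Chp1 fell (-0.47 and -0.54).

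Of 8 genes for NFAT kinases and the exporter XPO1, 2 rose and 3 fell in cKO cells, and 1 rose and 3 fell in control cells, which is near the 63.4% and 56.1% of all genes called. The kinase genes Dyrk2 (log2 fold change -0.83 in cKO and -0.77 in control cells), Csnk1e (-0.55 and -0.59) and Gsk3b (-0.51 and -0.49) fell, and Csnk1a1 rose (0.25 and 0.26). Of 20 tested NFAT target genes, 20 rose in cKO and 19 in control cells, with a median of 5.83 and 6.02. Csf2 had 0.035 to 0.111 CPM in rested cKO and 0 to 0.018 CPM in rested control libraries. It thus passed the filter on low counts through its activated libraries alone. Il2 was also low at rest, at 0.040 to 0.221 CPM in cKO and 0.051 to 0.248 CPM in control libraries. The list was chosen with results known, so these counts are descriptions and not read as support. Nr4a1, a nuclear receptor induced by antigen receptor signals, averaged 907 ± 131 CPM in activated and 4.13 ± 0.87 CPM in rested cKO cells, and 955 ± 77.0 CPM in activated and 2.82 ± 0.83 CPM in rested control cells. Egr3, Nr4a2 and Irf4, all transcription factors of the same response, rose by 6.51, 5.93 and 7.07 in cKO and by 7.15, 5.87 and 7.70 in control cells on the log2 scale. The target that did not pass in control cells was Fasl (1.07, adjusted p = 0.0712).

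Of 5 tested NFAT5 osmotic genes 3 rose in each genotype, and in control cells 1 fell, again not far from the 63.4% and 56.1% of all genes called in cKO and control cells. Slc5a3, which encodes a myo-inositol transporter, averaged 107 ± 1.8 CPM in activated and 35.0 ± 1.8 CPM in rested cKO cells, and 105 ± 3.1 CPM in activated and 35.9 ± 5.2 CPM in rested control cells. The chaperone gene Hspa4l rose by 2.17 and 2.44, and the aldose reductase gene Akr1b3 by 0.37 and 0.40, on the log2 scale. Slc6a6, the taurine transporter gene, fell in control cells (-0.18, adjusted p = 0.0426) and did not pass in cKO cells (-0.13, adjusted p = 0.0628). The interaction term gave no call for Slc6a6 (0.05, 95% interval -0.14 to 0.24, adjusted p = 1.0). Tox4, a ubiquitous relative of Tox, rose by 0.71 and 0.68, whereas Nfatc4 and Rcan2 had 5 and 1 counts over all 10 libraries. Tox3, with 93 counts over the 10 libraries, was tested and did not pass with activation (-0.20 in cKO and 0.51 in control cells). Its activated level was 0.049 to 0.185 CPM in cKO and 0.201 to 0.287 CPM in control libraries, which did not overlap (log2 fold change -0.95, SE 0.60, adjusted p = 0.843).

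**Figure D4:**
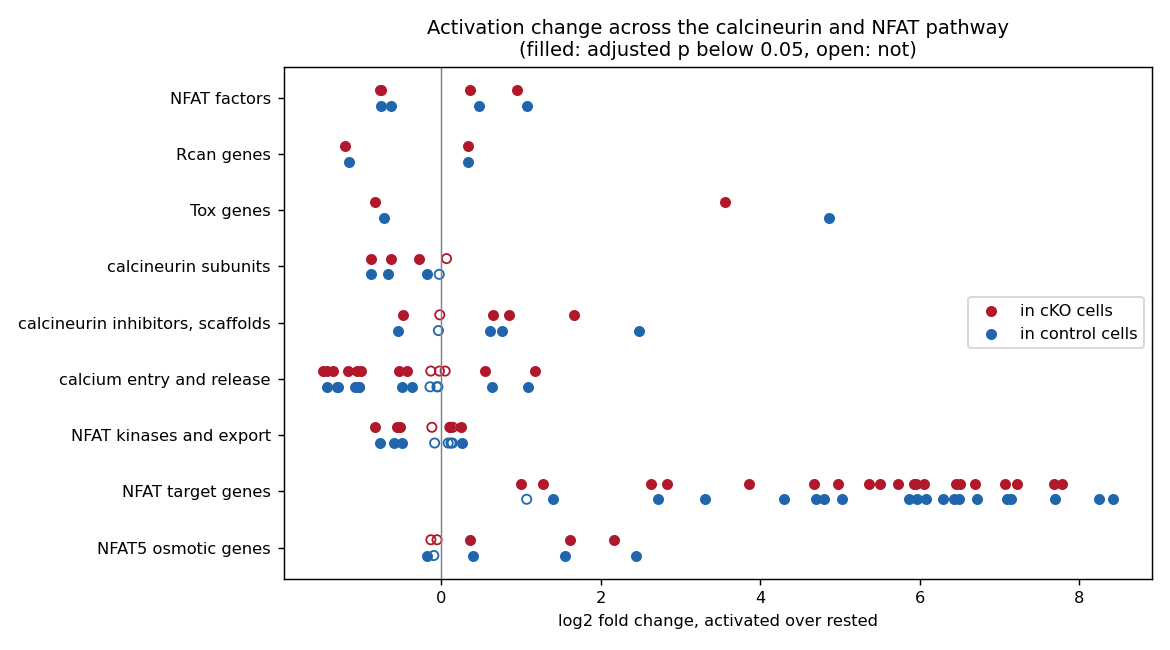
Log2 fold change of activated over rested cells for the 8 genes and the pathway lists, with Tox3 and Tox4 not shown. In each row cKO is above control, filled where the adjusted p by edgeR was below 0.05 and open where it was not. NFAT target genes lie at 1.006 to 7.78 in cKO and at 1.07 to 8.42 in control cells, while the NFAT genes themselves lie at -0.77 to 0.95 in cKO and -0.75 to 1.08 in control cells.

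Between genotypes 0 of the 57 pathway genes were called by edgeR's quasi-likelihood test in either state, with 9 at an unadjusted p under 0.05 in activated and 5 in rested cells, beside 1142 and 783 of all 18966 genes. DESeq2 called 0 in activated cells and 2 in rested cells, Irf4 and Nr4a1, both higher in cKO, where it called 21 of all genes in activated and 29 in rested cells, and limma called 0 of the 57 in each state. Rested Nr4a1 averaged 4.13 ± 0.87 CPM in cKO and 2.82 ± 0.83 CPM in control cells (difference 0.62 on the log2 scale, SE 0.12, and adjusted p = 0.184 from edgeR). Of the 20 NFAT targets, 14 had a positive estimate in activated cells (median 0.12) and 15 in rested cells (median 0.45), beside a median of 0.00 over all genes in each state. Over all genes, 50.7% had a positive estimate in activated and 51.3% in rested cells. Some targets were low at rest, such as Csf2 and Havcr2 (0.089 to 0.154 CPM in rested control libraries). The list was chosen with results known, so these counts are descriptions. Ccl3 averaged 106 ± 24.9 CPM in activated cKO and 54.1 ± 4.2 CPM in activated control cells (0.88, SE 0.22, adjusted p = 0.656 by edgeR). Besides Ccl3, the 9 genes in activated cells included Csf2, Ifng, Il2 and Tnf, whose means were higher in cKO. They also included Itpr2, Itpr3 and Ppp3cb, whose means were lower in cKO. The summed level of 8 NK and innate-like markers was 4.78 to 6.89 CPM in activated cKO and 2.16 to 3.73 CPM in activated control libraries, and 5.27 to 7.35 CPM in rested cKO and 2.93 to 4.15 CPM in rested control libraries. None of the 7 tested NK markers was called between genotypes, and of the 8, 4 were below 1 CPM in every library. Klre1 did not overlap in either state, at 1.67 to 2.52 CPM in activated cKO and 0.664 to 1.19 CPM in activated control libraries. Of all genes, 17.1% did not overlap in activated and 17.7% in rested cells, so this singles out no marker. Tyrobp and Fcer1g went the other way in rested cells, where Fcer1g had 0.443 to 0.482 CPM in cKO and 0.566 to 0.798 CPM in control libraries. The part of these markers in the values above was not tested.

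Levels of the other marker lists in activated and rested cells were as follows. Summed levels were 567 to 617 CPM in activated and 194 to 223 CPM in rested cKO libraries for 5 stress genes, and 542 to 573 CPM in activated and 198 to 211 CPM in rested control libraries. For 5 CD4 and regulatory T cell markers they were 59.9 to 92.2 CPM in activated and 18.4 to 27.6 CPM in rested cKO libraries, and 66.8 to 72.9 CPM in activated and 18.7 to 19.6 CPM in rested control libraries. Of these 5, Ctla4, also an NFAT target, and Zbtb7b rose in each genotype, and Cd4, Foxp3 and Ikzf2 did not pass. In cKO cells Cd4 averaged 0.71 CPM in activated and 0.89 CPM in rested cells, Foxp3 0.59 and 0.72 CPM, and Ikzf2 7.89 and 9.83 CPM. In control cells Cd4 averaged 0.47 CPM in activated and 0.24 CPM in rested cells, Foxp3 0.68 and 0.63 CPM, and Ikzf2 7.62 and 8.19 CPM. Between genotypes none of these 5 markers was called in either state, and 4 of 5 had a positive estimate at rest. Rested Cd4 did not overlap, at 0.679 to 1.22 CPM in cKO and 0.160 to 0.326 CPM in control libraries. The same held for 17.7% of all genes. For 5 dendritic cell markers summed levels were 12.9 to 15.2 CPM in activated and 1.03 to 1.95 CPM in rested libraries. Of these, 3 were below 1 CPM everywhere, and 1 of those 3 was at 0 everywhere. Most of the activated sum was Zbtb46. It averaged 12.9 CPM in activated and 1.07 CPM in rested cKO cells, and 12.4 CPM in activated and 1.13 CPM in rested control cells. For 6 B cell markers they were 226 to 282 CPM in activated and 279 to 361 CPM in rested libraries, and 4 of the 6 were below 1 CPM everywhere. For 6 myeloid markers they were 13.3 to 17.2 CPM in activated and 9.24 to 13.1 CPM in rested libraries, with 5 below 1 CPM everywhere, and of 4 tested 2 rose in cKO and none in control cells. The 6 erythroid and platelet markers were below 1 CPM everywhere. The part of these levels in the activation results was not tested.

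Positions are those of the deposited table (mm39). Nfatc3 (chromosome 8, 106785472 to 106857169) and Nfat5 (chromosome 8, 108020102 to 108106149) lie 1.16 Mb apart and moved in opposite directions. Tox2 and Nfatc2 lie 35.9 Mb and 41.1 Mb from Dusp2 on chromosome 2. Rcan1 lies on chromosome 16 (92188841 to 92267755), Rcan3 on chromosome 4 (135139619 to 135161164) and Tox on chromosome 4 (6686353 to 6991557). Among genes that overlap one of the 8, Mir700 within Rcan3 had the most counts, 3.78% of the Rcan3 counts, and Esrp2 had 0.107% of the Nfatc3 counts.

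The genes whose profile over the 10 libraries was most like each member were found by the root mean square difference of log2 CPM after centring, among 10405 genes that averaged 5 CPM or more (10406 for Tox2). For Nfatc1 they were Imp4, Grap and Lzic (0.044 to 0.055 log2 units), and for Nfatc3 they were Mpnd, Exoc6b and Actr8 (0.035 to 0.039). For Nfatc2 they were Zyx, Zmat1 and Ppt1 (0.081 to 0.089), and for Nfat5 they were Rbm26, Xpo4 and Ddx19b (0.055 to 0.067). For Rcan1 they were Polr3k, Pvr and Ibtk (0.052 to 0.060), and for Rcan3 they were Timp2, Amer1 and Flot2 (0.063 to 0.080). For Tox they were Polg2, Ubxn7 and Nup210 (0.077 to 0.081). Tox2, with few counts at rest, had Ybx3, Eea1 and Mki67 nearest, at larger differences (0.288 to 0.386). Its own profile also varied most, with a root mean square of 1.83 log2 units around its mean. That of the other members ran from 0.192 for Rcan1 to 0.607 for Rcan3. The differences are not scaled to this variation, so they do not rank how closely members were matched. Activated and rested libraries form separate clusters, so no correlation is given.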

How the data were processed

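Whole-number counts per gene were deposited by the authors with no normalization found in the values, and the deposited FPKM equal the counts scaled by gene length plus 1 and column sum within a relative deviation of 9.4e-07. Per the submitters' processing notes, reads were processed with FastQC, Subread and MultiQC on mm39. Per the labels' protocols the library kit is stranded. No source used here gives the annotation or the strand setting of counting.

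Counts of all genes were fitted in R 4.3.3 with edgeR 4.0.16 (TMM, filterByExpr by group, robust quasi-likelihood fit of 4 group means plus sex over all 10 libraries, 5 residual degrees of freedom). The biological coefficient of variation was 9.14%. P-values were adjusted over 18966 genes. The SE is the log2 fold change over the square root of F. Alternatives used DESeq2 1.42.0 and limma 3.58.1, while Python 3.11.15 made figures. Genes and lists were chosen with earlier results of these data known. All 8 genes are named, and up to 4 per pathway list by smallest p in a comparison. Others (Ccl3, Csf2, Fasl, Slc6a6, Stim1, Stim2, Ppp3r1 in part and the overlapping genes) were chosen after their values were seen.

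Activated and rested libraries of a mouse pair by design. Their deviations from group means correlated at 0.25, 0.15 and 0.33 in cKO mice 1, 2 and 3 and at 0.36 in both control mice, where 2 mice give 1 value. For genotype, the block was a limma fit whose consensus correlation within mice over all genes was -0.135, of opposite sign. These are unlike measures, since the limma model held sex and the deviations from group means did not remove it. Whether that accounts for the sign was not tested. Replicates are separate mice, and sex coincides with the number that starts the mouse names.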

Additional observations from a re-analysis of the deposited data

How the results depend on the processing

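Both activation comparisons kept their direction for all 8 genes under every alternative, and 218 of 222 gene-level values also kept their side of the threshold. The 4 that did not, of Rcan1 and Nfat5, are given in the report, and the cause was not tested. With a minimum absolute log2 fold change of 1, 2 of 8 genes were called in cKO cells (Rcan3 and Tox2) and 3 of 8 in control cells (Nfatc1 as well). Leaving out a mouse gave 7 to 8 genes in cKO and 6 to 8 in control cells. The replicate block (mouse) changed no call: 8 of 8 in each activation comparison, and 0 of 8 for genotype and interaction. Leaving out TMM factors, an alternative added after seeing the data, shifted the median of all genes by 0.07 in the activation comparisons and changed no call among the 8 genes. Tox2 has no value under the filter of at least 5 CPM in 2 libraries.

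Over all genes, the number called in activated cKO against control cells was 8, and became 211 with no filter, 5 with the strict filter, 21 with DESeq2, 4 with limma on log2(FPKM + 0.5), 5 with only the groups compared and 6 to 49 without a mouse. In rested cells it was 8, and became 204 with no filter, 5 with the strict filter, 29 with DESeq2, 5 with limma and 7 to 25 without a mouse. With a minimum absolute log2 fold change of 1, the activation comparison gave 4647 against 12017 genes in cKO and 4136 against 10631 in control cells, and without a mouse the count in control cells was 6981 (control mouse 2) to 10646. The interaction called 0 genes, 39 with no filter, 3 with DESeq2 and 0 to 3 without a mouse.

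For genotype and interaction, no gene of the 8 was called under any alternative, and 29 of 324 uncalled values changed sign. In activated cells these were Nfatc2 with the block (-0.00025) and Tox2 with no sex term (-0.0059), limma (-0.0014) and the block (-0.0054). In the interaction they were Nfatc3 (0.0018 with DESeq2 size factors and with DESeq2, 0.0014 with no filter) and Rcan1 (0.0056, 0.0059 and 0.0055 with the same 3). Leaving out a mouse, ranges that crossed 0 in activated cells were -0.197 to 0.0143 for Nfat5, -0.132 to 0.0804 for Nfatc2, -0.31 to 0.0087 for Rcan3 and -0.36 to 0.38 for Tox2. In rested cells they were -0.0579 to 0.0765 for Nfat5, -0.0123 to 0.0787 for Nfatc1, -0.0183 to 0.330 for Nfatc2, -0.0268 to 0.218 for Rcan1 and -0.17 to 0.00016 for Tox. In the interaction they were -0.22 to 0.00091 for Nfat5, -0.0368 to 0.0387 for Nfatc3, -0.14 to 0.15 for Rcan1 and -0.153 to 0.0837 for Rcan3. With 2 control mice, and Tox2 at 2 to 8 counts in rested libraries, small genotype differences were not detectable at this depth and number.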
